A study of Mus musculus with 2 samples.

Results

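CD8 T cells are the T cells that read peptides on major histocompatibility complex class I molecules, with the help of the coreceptor chains encoded by Cd8a and Cd8b1. A naive CD8 T cell circulates between blood and lymphoid organs by means of homing receptors such as the chemokine receptor Ccr7, and the transcription factors Tcf7, Lef1 and Bach2 keep it from acquiring effector functions. After antigen contact, effector and memory CD8 T cells carry more Cd44 and make chemokines, granzymes and interferon-gamma (Ifng), and memory cells make these products within hours when they are stimulated again. CD8 T cells in which no Ifng transcript was counted after such a stimulation are described here.

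The cells came from spleens of wild-type C57BL/6 mice that were 8 weeks old and had all been sensitized against ovalbumin (OVA) on days 0 and 10, so that no unsensitized control was part of the pool. One condition was left untreated, a second received OVA in PBS on days 20, 22 and 24 and OVA in Alum on days 40 and 60 as standard desensitization, and the third received a DCIR-2-Fusion protein that carries OVA to dendritic cells on days 20, 22 and 24. Spleens were taken on day 80 after an intraperitoneal OVA challenge. The cells were restimulated for 3 h with PMA and ionomycin, which bypass the T cell receptor and which all 3 conditions received, sorted for CD45 and split by CD11b into a negative and a positive fraction, which were pooled in equal parts, labelled with hashtag antibodies and sequenced as 1 pool. The labels do not pair the 4 hashtags with the 3 conditions, so that no condition can be compared and the pool counts as 1 sample. No test between conditions was possible, intervals below cover counting error only, and no p-value is given.

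Of 16829 barcodes with unique molecular identifier (UMI) counts, 16325 passed filters of 200 or more genes and no more than 10% of UMIs from mitochondrial genes. Of these, 2030 were gated as T cells by at least 2 UMIs of Cd3d, Cd3e, Cd3g and Trac together and none of Cd79a, Ms4a1 and Ncr1. The members are the 240 gated cells with at least 1 UMI of Cd8a or Cd8b1, no UMI of Cd4 or Ifng and fewer than 2 of the 3 checkpoint genes Tigit, Ctla4 and Lag3 detected. They made up 11.8% of the gated T cells (exact 95% interval 10.4 to 13.3%) and 1.43% of all barcodes. They were compared with 1445 gated T cells without a UMI of Cd8a or Cd8b1, below called T cells without CD8 genes. Of these, 1185 had no Cd4 UMI either, so they can include CD8 T cells whose CD8 transcripts were not counted. Further groups were 232 CD8 T cells that met the same rule but had Ifng, and 90 CD8 T cells in which 2 or 3 checkpoint genes were detected. The last group was 195 cells, a subset of the 1445, that had Cd4 and no Foxp3 UMI. The values of these rule genes chose the cells, so their differences between the groups are descriptions of the choice. No comparison group was held to both the absence of Ifng and the limit on checkpoint genes. Genes that vary along with these transcripts can therefore differ through the choice as well.

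The hashtags are antibody-bound oligonucleotides that mark the source of a cell before pooling, and their barcodes are shown because they split the 240 cells into the 4 sets used below to see how far a value varied within the pool. Nothing is in capitals, as the whole of each barcode was read.
Hashtag 9: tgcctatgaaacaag
Hashtag 10: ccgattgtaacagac
Hashtag 11: gcttaccgaattaac
Hashtag 12: ctgcaaatataacgg
A single hashtag was called in 185 of the 240 cells, and 55 were called as carrying more than 1. Hashtag 9 held 21 members among 256 gated T cells (8.20%), hashtag 10 held 43 among 531 (8.10%), hashtag 11 held 61 among 399 (15.3%) and hashtag 12 held 60 among 343 (17.5%). The share was thus higher under hashtags 11 and 12 than under 9 and 10. The exact 95% intervals of the highest, hashtag 12 (13.6 to 21.9%), and the lowest, hashtag 10 (5.92 to 10.8%), did not overlap. They cover the counting of cells within a hashtag and not the spread between samples. As a share of CD8 T cells with fewer than 2 checkpoint genes, the members made up 41.2%, 41.7%, 55.0% and 63.2% in hashtags 9, 10, 11 and 12.

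The marker genes of the label, Cd8b1, Cd8a and Dapl1, were looked at first. Cd8b1 and Cd8a are part of the rule, so their values describe the choice and do not check the label. Cd8b1 alone was seen in 167 members, Cd8a alone in 20 and both in 53. Levels are given as UMIs per 1000000 UMIs of a group (CPM), and Cd8b1 was at 223 CPM (exact Poisson 95% interval 204 to 243) in the members, 238 in the CD8 T cells with Ifng and 185 in those with 2 or 3 checkpoint genes. In 2267 B cells, which should lack Cd8b1, its level was 0.406 CPM, and 0.221% of the B cells had a UMI against 91.7% of the members, at median depths of 9276 and 9105 UMIs. Of the 240 members, 81 had exactly 1 CD8 UMI. Zbtb7b, which encodes the factor that drives the helper lineage, had no UMI in the members, where 3 counts would be 1.31 CPM. The gene was also rare in the T cells without CD8 genes, at 5.16, 1.40, 4.16 and 1.03 CPM under hashtags 9, 10, 11 and 12. Its absence therefore says little about the label. Trdc, from the gamma-delta receptor, was at 4.82 CPM against 54.0 in the T cells without CD8 genes, with 6 of its 11 UMIs in 1 member. It alone of the 8 gamma-delta genes reached 100 UMIs, and the 6 genes of that list with no UMI in the members had few in the T cells without CD8 genes as well.

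Dapl1, a gene known from resting and early memory T cells, was higher in the members than in CD8 T cells with Ifng but not than in those with checkpoint genes. It was at 14.0 CPM (9.59 to 19.8), with 32 UMIs in 16 of 240 cells (6.67%), and was detected in 0 of 2267 B cells. That count allows up to 0.132% of B cells with a detected UMI at this depth, which is not a share of cells that express the gene. Its level was 4.16 CPM in T cells without CD8 genes and 5.34 CPM (2.99 to 8.81) in CD8 T cells with Ifng, but 32.2 CPM in CD8 T cells with 2 or 3 checkpoint genes, the highest of these 4 levels. The gene had fewer than 100 UMIs in the members and the T cells without CD8 genes together and was not counted among the genes compared.

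The members were deeper than the T cells without CD8 genes, with medians of 9105 and 7688 UMIs, and shallower than CD8 T cells with Ifng (11826.5 UMIs). Depth bears on the rule itself. The members were 59.3% of the CD8 T cells with fewer than 2 checkpoint genes among cells under 5000 UMIs, 66.5% at 5000 to 10000, 38.6% at 10000 to 20000 and 17.6% above 20000. When each cell was thinned to 2000 UMIs, 74 of the 232 CD8 T cells with Ifng no longer had an Ifng UMI, and 100 of 239 members still had a CD8 UMI. An Ifng or CD8 count of 0 therefore means not detected at this depth. Ribosomal protein genes took a median of 28.6% of the UMIs of a member (quartiles 23.9 and 31.6%), against 26.0% in CD8 T cells with Ifng, 21.9% in those with checkpoint genes and 20.8% in T cells without CD8 genes. Within each hashtag the median of the members (28.1%, 26.6%, 29.6% and 28.3% in hashtags 9, 10, 11 and 12) was above that of the T cells without CD8 genes (18.7%, 21.2%, 23.5% and 19.9%). It was above that of CD8 T cells with Ifng in hashtags 9, 11 and 12 but below it in hashtag 10 (26.6 against 27.8%).

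Genes of the lineage and of the receptor came next. Against the T cells without CD8 genes, 8493 genes had at least 100 UMIs in both groups together, of which 44 were at least 2-fold higher in the members (0.518%) and 1190 at least 2-fold lower (14.0%), with a median ratio of 0.882 over all genes tested. These counts rest on the minimum of 100 UMIs, which a gene can reach through the larger group alone. With no minimum 1728 genes were higher and 2493 lower, and with each cell thinned to 1000 UMIs 446 were higher. Cd8a and Cd8b1 are among the 44 through the rule. Runx3, the factor that silences Cd4 in CD8 T cells, was at 108 CPM in the members and 55.0 in the T cells without CD8 genes (ratio 1.96, 95% interval 1.69 to 2.27), with 99.7 and 89.0 CPM in the other CD8 groups. Its level was higher in the members under hashtags 9, 10 and 11 (115, 125 and 139 against 43.8, 42.8 and 62.0 CPM) but not under hashtag 12 (70.1 against 74.0 CPM). Themis, which tunes T cell receptor signals, was at 1690 CPM against 604 (ratio 2.80, 2.69 to 2.91) and higher still, at 2205 CPM, in CD8 T cells with Ifng. Gata3, the factor of type 2 helper cells, was at 18.4 CPM against 87.5 (ratio 0.210), and Tox, a factor linked to chronic stimulation, at 201 against 759 CPM (ratio 0.264). Tox was at 776 CPM in the CD8 T cells with checkpoint genes, so it was lower in the members than in both of these groups and near its level in CD8 T cells with Ifng (175 CPM). All 11 tested genes of the T cell receptor and CD3 list that the rule did not use lay within 2-fold of the T cells without CD8 genes, among them Trbc2 at 695 against 565 CPM.

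Genes of the naive state lay on both sides of the T cells without CD8 genes. Of 34 genes on this list, 24 were tested against T cells without CD8 genes, 1 was at least 2-fold higher and 5 at least 2-fold lower, with a median ratio of 0.756, under the 0.882 of all genes. Of all genes tested there, 0.518% were higher and 14.0% lower. Of the 24, 10 were above a ratio of 1 and 14 below. Ccr7 was at 113 against 67.0 CPM (ratio 1.69), Bach2 at 2204 against 1271 (1.73), Actn1 at 98.6 against 55.1 (1.79), Tcf7 at 76.7 against 53.3 (1.44) and Lef1 at 148 against 115 (1.29). These 5 genes were higher in the members but within 2-fold, and for each of them the 4 hashtags of the members overlapped those of the T cells without CD8 genes. Within hashtags, Ccr7, Bach2 and Actn1 were higher in all 4, whereas Tcf7 was not higher under hashtag 10 and Lef1 not under hashtags 10 and 11. The 5 genes past 2-fold downward were Tspan32, Ramp1, Arl4c, Rasgrp2 and Txk, a kinase of the Tec family, which was at 35.5 against 72.7 CPM. The members held 3 UMIs of Tspan32, 4 of Ramp1 and 8 of Rasgrp2, which reached the minimum of 100 through the larger group, and with a minimum of 300 UMIs 2 genes of the list were lower. Klf2, which sustains the egress receptor S1pr1, was at 24.1 against 36.3 CPM, S1pr1 at 6.13 against 10.2 and the interleukin-7 receptor Il7r at 41.6 against 68.6, values that are lower in the members although these genes are commonly read as naive. Without hashtag 12 none of the list was 2-fold lower, and without hashtag 11, which left a similar number of members, 3 were.

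The next question was how the same list stood against the other CD8 T cells. In the comparison with CD8 T cells with Ifng, 5386 genes were tested, of which 30 were at least 2-fold higher in the members (0.557%) and 135 at least 2-fold lower (2.51%). None of the 15 tested naive-state genes passed 2-fold, but 11 of the 15 were above 1, with a median ratio of 1.36 beside 1.02 over all genes tested. Bach2 was at 1199 CPM there (ratio 1.84, 1.76 to 1.92), Ccr7 at 64.5 (1.76) and Tcf7 at 45.6 (1.68). Against CD8 T cells with 2 or 3 checkpoint genes, 4689 genes were tested, with 100 higher (2.13%) and 299 lower (6.38%), and 7 of 15 naive-state genes were at least 2-fold higher and none lower. These included Lef1 at 48.6 CPM (ratio 3.05), Ccr7 at 35.9 (3.16) and Bach2 at 772 (2.86). Ccr9, a homing receptor for the small intestine that naive CD8 T cells also carry, was at 14.9 CPM in the members, 5.70 in CD8 T cells with Ifng, 0.748 in those with checkpoint genes and 3.27 in T cells without CD8 genes, with fewer than 100 UMIs in each pair of groups. Against the 195 Cd4 T cells, where 5045 genes were tested with 92 higher (1.82%) and 492 lower (9.75%), 3 of 18 naive-state genes were higher and 3 lower.

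**Figure D1:**
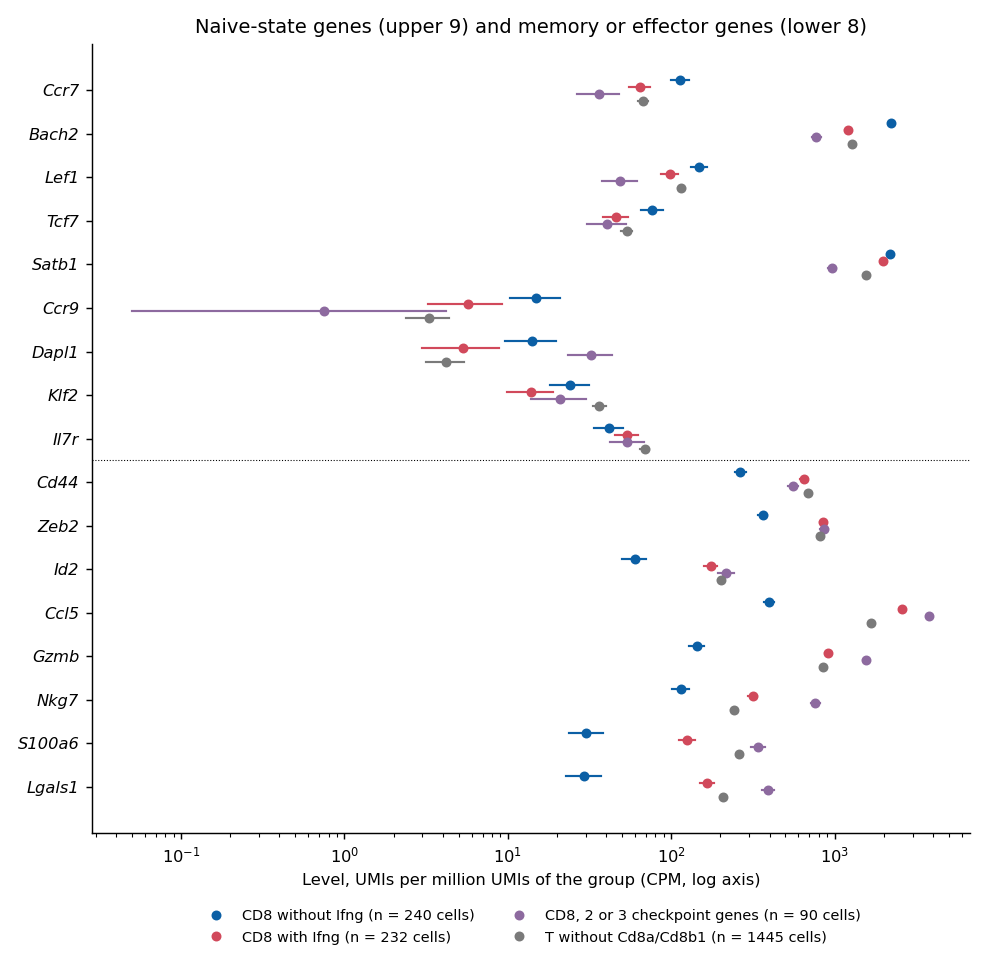
Levels of 9 naive-state genes (above the dotted line) and 8 memory or effector genes (below it) in 4 groups of T cells, in CPM on a log axis; points are the levels and lines the exact Poisson 95% intervals of counting error. The members (blue) sit highest for Bach2 (2204 CPM) and Ccr7 (113 CPM) and lowest for each of the 8 memory or effector genes, from Cd44 (265 CPM) to Lgals1 (29.4 CPM).

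Most genes of memory and effector T cells were lower in the members than in each of the 4 comparison groups. The members were chosen for no Ifng and fewer than 2 checkpoint genes, limits that none of these groups shared in full. How far the counts below follow from this choice was not tested. Of 28 genes, 26 were tested against T cells without CD8 genes, of which 16 were at least 2-fold lower and none higher (median ratio 0.448). Of all genes tested there, 14.0% were lower. All 16 were lower in each of the 4 hashtags. Without hashtag 12 the count was 10. Cd44, the hyaluronan receptor by which memory cells are commonly sorted, was at 265 CPM (244 to 287) in the members and at 686 in the T cells without CD8 genes, 646 in the CD8 T cells with Ifng and 557 in those with checkpoint genes. Under hashtags 9, 10, 11 and 12 its level was 180, 354, 281 and 176 CPM in the members and 855, 652, 695 and 542 CPM in the T cells without CD8 genes, with no overlap. The calcium-binding proteins S100a4 and S100a6 and the galectin Lgals1 were at 6.57, 30.2 and 29.4 CPM against 198, 260 and 206, ratios of 0.0332, 0.116 and 0.142. For S100a6 the hashtags differed widely, with 81.9 and 63.4 CPM under hashtags 9 and 11 and 2.55 and 8.55 CPM under 10 and 12, all below the 176 to 328 CPM of the T cells without CD8 genes. For S100a6 a single member held 50.7% of the UMIs, for S100a4 a single member held 73.3% of 15, and the 18 members with exactly 2 CD3 and Trac UMIs were at 267 CPM of S100a6. Zeb2, Id2 and Prdm1, transcription factors of effector differentiation, were at 362, 59.6 and 8.32 CPM against 809, 201 and 43.8.

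Similar counts were found against the other groups. Of all genes, 2.51% were lower against CD8 T cells with Ifng, 6.38% against those with checkpoint genes and 9.75% against Cd4 T cells. Of the genes tested against CD8 T cells with Ifng, 17 of 24 tested memory and effector genes were at least 2-fold lower and none higher, and against those with checkpoint genes 13 of 21 were lower and none higher. Against Cd4 T cells 17 of 20 were lower and 1 higher. The activating receptor Klrk1 was at 20.2 CPM in the members against 118 and 130 CPM in these groups, and the inhibitory receptor Klrc1 at 12.3 against 82.3 and 66.6. A level that did not follow was that of Tbx21, the factor that drives Ifng in type 1 responses, at 95.1 CPM (82.8 to 109) in the members, 66.6 in CD8 T cells with Ifng, 69.6 in those with checkpoint genes and 93.2 in T cells without CD8 genes. Eomes, its relative in memory cells, was at 29.4 CPM against 59.1 in CD8 T cells with Ifng and 31.0 in T cells without CD8 genes.

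**Figure D2:**
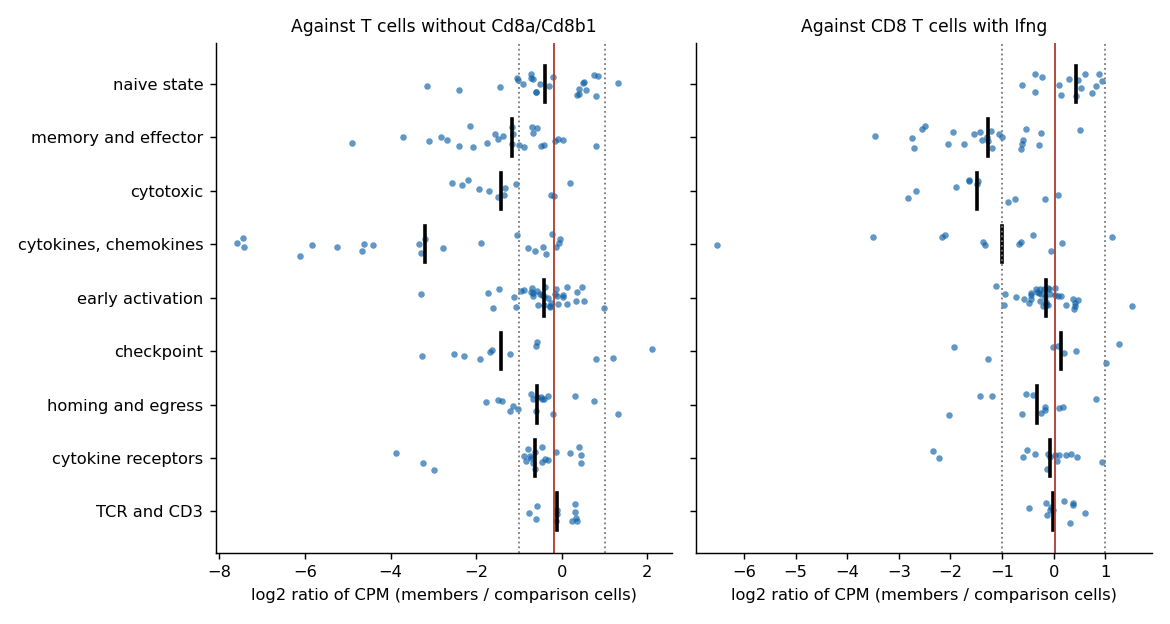
Each point is the log2 ratio of the level of 1 gene in the members to that in T cells without CD8 genes (left) or CD8 T cells with Ifng (right), for 9 lists of genes, with genes of the rule left out and at least 100 UMIs per gene; black bars are list medians, the red line the median of all genes tested and dotted lines 2-fold. The medians of the memory and effector, cytotoxic and cytokine lists lie left of the red line in both panels, although single genes of each list lie right of it. The naive-state median is over 24 genes in the left panel (ratio 0.756) and over 15 in the right panel (ratio 1.36), so that the medians are not of the same genes.

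Most tested cytotoxic and cytokine genes were lower in the members than in T cells without CD8 genes, some of them tested through that larger group alone. The rule limited Ifng and checkpoint transcripts in the members but not in that group. In the 618 cells that met the rule except that they had no CD8 UMI, Gzmb was at 276 CPM and Ccl5 at 804. How far the counts below follow from the rule was not tested. Of 12 tested cytotoxic genes, 9 were at least 2-fold lower in the members than in T cells without CD8 genes and none higher. Of all genes tested there, 14.0% were lower. Against CD8 T cells with Ifng 7 of 11 were lower and none higher, beside 2.51% of all genes lower. Against Cd4 T cells 2 of 9 were lower and none higher, beside 9.75% of all genes lower. The median ratio of the list was 0.681 there, beside 0.931 over all genes tested. Gzmb, a protease of cytotoxic granules, was at 143 CPM (128 to 160) in the members, 848 in T cells without CD8 genes, 905 in CD8 T cells with Ifng and 1550 in those with checkpoint genes. In B cells, which should lack it, Gzmb was at 122 CPM. Gzma was at 79.7 CPM in the members and 75.9 in B cells and the chemokine Ccl3 at 230 and 239 CPM, but the members were not alike in Gzma, which was at 173 CPM in those with a Ccl5 UMI and 9.97 in those without, so that the B cell level was not a common level of all members. Ccl4 and Xcl1, chemokines that activated CD8 T cells release, were above the level of B cells, at 3512 and 1248 CPM against 1177 and 157. Under hashtags 9, 10, 11 and 12 Xcl1 was at 71.0, 1301, 2227 and 1134 CPM in the members, so that hashtag 9, with 13 UMIs, lay below B cells. They were below the CD8 T cells with Ifng, which had 15792 CPM of Ccl4 and 5349 of Xcl1. Ccl5, a chemokine stored by memory CD8 T cells, was at 397 CPM in the members against 1668, 2590 and 3754 CPM in T cells without CD8 genes and the CD8 T cells with Ifng or checkpoint genes, with 174 in B cells. Srgn, which encodes the proteoglycan that packs granules, was at 3942 against 4723 CPM and did not pass 2-fold.

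Of 23 tested cytokine and chemokine genes other than Ifng, 15 were at least 2-fold lower than in T cells without CD8 genes and none higher. Of all genes tested there, 14.0% were lower and 0.518% higher. Several of the 23 reached 100 UMIs through that larger group alone, with 4 UMIs of Il4, 2 of Csf1, 1 of Il3 and none of Il21 in the members. Against CD8 T cells with Ifng 12 could be tested, of which 6 were lower and 1 higher, beside 2.51% and 0.557% of all genes. Interleukin-2 (Il2) was at 90.2 CPM against 909, with 228 CPM in CD8 T cells with Ifng, and Tnf at 38.6 against 59.5. Il10, the regulatory cytokine with which the study is concerned, had 13 UMIs in 8 members (5.70 CPM, 3.03 to 9.74), against 55.9 CPM in T cells without CD8 genes, 10.7 in CD8 T cells with Ifng and 125 in those with checkpoint genes. The helper cytokines Il13 and Il17a were at 0.876 and 0.438 CPM against 169 and 76.6, and Il5 had no UMI, at least 83.0-fold lower than the 109 CPM of the T cells without CD8 genes if the members had 3 counts. The lymphotoxin gene Ltb was close, at 78.0 against 86.1 CPM, and higher than in CD8 T cells with Ifng (35.6 CPM, ratio 2.19). Removing cells with a Foxp3, Trdc or Zbtb16 UMI takes out regulatory, gamma-delta and innate-like cells only where these genes were detected. With such cells removed, 749 in place of 1190 genes were 2-fold lower in the members than in T cells without CD8 genes.

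Genes that stimulation induces early were detected in the members. Of 36 genes of early activation, all tested against T cells without CD8 genes, 30 lay within 2-fold and 6 were lower, a share close to the 14.0% of all genes. Against Cd4 T cells 10 of 35 were lower and 1 higher, beside 9.75% of all genes lower, with a median ratio of 0.660. Cd69, the early activation antigen, was at 884 CPM against 692 (ratio 1.28), Irf4 at 515 against 407 and the interleukin-2 receptor chain Il2ra at 694 against 863. Myc, which drives growth of activated T cells, was at 312 CPM against 158 (ratio 1.97, 1.81 to 2.15), with 264 CPM in CD8 T cells with Ifng. Under hashtags 9, 10, 11 and 12 Myc was at 180, 270, 386 and 328 CPM in the members and 140, 166, 184 and 160 in the T cells without CD8 genes, higher within each hashtag, though hashtag 9 of the members lay below hashtag 11 of the other cells. The costimulatory receptors Tnfrsf4 and Tnfrsf9 were lower, at 85.4 and 191 CPM against 839 and 579. Relative to CD8 T cells with Ifng, 34 of the 36 genes lay within 2-fold, with Tnfrsf4 at a ratio of 2.86 (29.9 CPM there) and Ier3 lower (21.9 against 47.4 CPM). A single member held 46.2% of the Tnfrsf4 UMIs, and under hashtags 9, 10, 11 and 12 the members were at 16.4, 237, 137 and 17.1 CPM, so that hashtags 9 and 12 lay below CD8 T cells with Ifng.

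Receptors of the checkpoint list split into high and low. Of all genes tested against T cells without CD8 genes, 0.518% were at least 2-fold higher in the members and 14.0% lower. Of 12 tested genes of this list outside the rule, 7 were at least 2-fold lower, and Cd226 and Cd96 were at least 2-fold higher. Both encode receptors that share their ligands with Tigit, Cd226 as an activating one. Cd226 was at 198 CPM (181 to 218) against 46.4 (ratio 4.28, 3.78 to 4.84), 98.7 in CD8 T cells with Ifng and 111 in those with checkpoint genes. A UMI of it was found in 57.9% of the members and 15.8% of the T cells without CD8 genes, and in 26.4% and 6.28% after thinning each cell to 2000 UMIs, against 0.0882% of B cells unthinned. Hashtag 12 was far above the others, with 390 CPM against 142, 102 and 89.2 under hashtags 9, 10 and 11, and each was above its T cells without CD8 genes (39.7, 52.3, 32.0 and 61.0 CPM under hashtags 9, 10, 11 and 12). Cd96 was at 35.0 against 15.2 CPM (ratio 2.30) but had no UMI under hashtag 9. Pdcd1 was at 4.82 against 27.6 CPM, Havcr2 at 16.2 against 51.6 and Icos at 142 against 327.

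**Figure D3:**
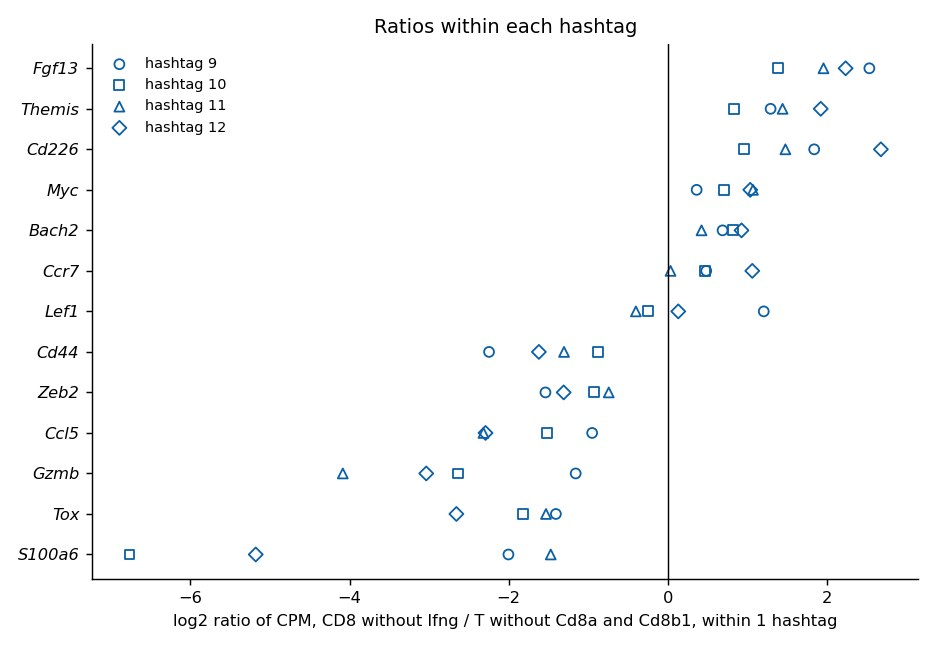
Log2 ratios of the level in the members to that in T cells without CD8 genes for 13 genes within each of the 4 hashtags (circle 9, square 10, triangle 11, diamond 12), where the hashtags hold 21, 43, 61 and 60 members. Fgf13, Themis, Cd226, Myc, Bach2 and Ccr7 lie right of 0 and the 6 lower genes, from Cd44 to S100a6, left of 0 under every hashtag, while Lef1 lies on both sides.

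Among the 10 genes with the highest ratios to T cells without CD8 genes, those outside the rule and the lists were 1700062C10Rik, Smyd1, Syde2, Gm47782, Lcn4, Cdc14b and Fgf13. Fgf13, an intracellular member of the fibroblast growth factor family, had by far the most UMIs of these, 2884. It was at 1263 CPM (1218 to 1310) against 343 in T cells without CD8 genes (ratio 3.68), 881 in CD8 T cells with Ifng, 312 in those with checkpoint genes and 142 in Cd4 T cells. Its levels under hashtags 9, 10, 11 and 12 were 1490, 1148, 983 and 1587 CPM in the members and 258, 442, 253 and 338 in the T cells without CD8 genes, without overlap. A UMI was found in 84.6% of the members against 14.1% of B cells, or 67.4% against 7.24% after thinning. Fgf13 spans 505927 bases on the X chromosome, Bach2 347305 and Themis 215459, and whether reads from introns were counted is not given in the sources used here, so a spliced and an unspliced transcript cannot be told apart. The phosphatase gene Cdc14b was at 110 against 28.6 CPM (ratio 3.86) but no different in CD8 T cells with Ifng (104 CPM, ratio 1.06, 0.893 to 1.26). It overlaps Aaed1 on the same strand, so reads could be split between them.

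Smyd1 was higher in each of the 3 CD8 groups than in T cells without CD8 genes, although it was detected in 46 of the 240 members (19.2%) and 3.88% of the latter. It encodes a histone methyltransferase known from heart and skeletal muscle, and lies beside Cd8b1: in GENCODE (GRCm38) Smyd1 is at chr6:71213940-71322233 on the minus strand and Cd8b1 at chr6:71322788-71337494 on the plus strand, with 554 bases between them, and Cd8a at chr6:71373427-71379173 lies 35932 bases further on. Smyd1 was at 42.1 CPM (34.1 to 51.4) in the members, 61.6 in CD8 T cells with Ifng, 76.3 in those with checkpoint genes and 5.65 in T cells without CD8 genes (ratio 7.45, 5.45 to 10.2). The other lowest levels were 3.36 CPM in Cd4 T cells, 2.64 in B cells and 2.17 in natural killer cells. Under hashtags 9, 10, 11 and 12 it was at 21.8, 15.3, 37.7 and 80.4 CPM in the members and at 4.64, 7.0, 4.58 and 5.17 CPM in the T cells without CD8 genes, higher in the members within every hashtag.

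The promoters of Cd8a and Smyd1 are printed because these neighbouring genes both stood among the highest ratios, Cd8a through the rule, from 250 bases before to 50 after the start in RefSeq (GRCm38.p6). RefSeq places that start of Smyd1 inside the gene span above and not beside Cd8b1. Capitals mark the letters TGTGGT or ACCACA, the core that Runx factors are known to bind, searched on both strands, which overlap no other motif as none was searched. These letters occur in 16.8% of 32851 promoters of this length.
Cd8a, chr6:71373177-71373476, plus strand: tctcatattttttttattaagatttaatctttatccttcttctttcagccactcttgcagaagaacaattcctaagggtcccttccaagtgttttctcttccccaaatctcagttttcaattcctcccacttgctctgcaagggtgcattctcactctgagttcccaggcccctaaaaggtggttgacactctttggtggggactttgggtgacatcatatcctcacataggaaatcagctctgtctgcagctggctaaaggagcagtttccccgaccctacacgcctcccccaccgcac
Smyd1, chr6:71262232-71262531, minus strand: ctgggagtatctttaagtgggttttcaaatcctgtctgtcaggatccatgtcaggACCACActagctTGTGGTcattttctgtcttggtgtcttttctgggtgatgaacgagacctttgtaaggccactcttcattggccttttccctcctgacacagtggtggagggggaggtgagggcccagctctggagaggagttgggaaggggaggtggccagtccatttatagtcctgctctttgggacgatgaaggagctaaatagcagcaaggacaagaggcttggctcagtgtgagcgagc
The Smyd1 window holds 2 such hexamers and the Cd8a window 0, which is a description of these windows.

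The levels of several genes differed with the Ifng count. In CD8 T cells with fewer than 2 checkpoint genes, Ifng counts of 0, 1, 2 to 5, 6 to 20 and over 20 UMIs held 240, 44, 63, 57 and 68 cells, with median depths of 9105, 10967, 10531, 13229 and 12208 UMIs. Just inside the threshold, Ccl4 was at 3512 CPM, just outside it at 4994, and it reached 8483, 15586 and 29135 CPM in the next 3 classes. Xcl1 ran from 1248 and 1614 to 9420 CPM. Ccl5 stepped at the threshold itself, from 397 CPM in the members to 1895 CPM in the cells with 1 Ifng UMI, and Cd44 from 265 to 519 CPM. On the other side Bach2 was at 2204, 1467, 1687, 907 and 869 CPM in the 5 classes and Cd226 at 198, 141, 146, 73.1 and 53.7 CPM, both lowest above 20 UMIs but not lower at each step. Ccr7 did not step down at the threshold, with 113 CPM in the members against 127 in the cells with 1 Ifng UMI, and was lower above 20 UMIs, at 36.6 CPM. Themis was higher at each step, from 1690 to 2373 CPM. The Ifng count is part of what these cells were chosen by and the classes differ in depth, so the levels are given with no test.

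**Figure D4:**
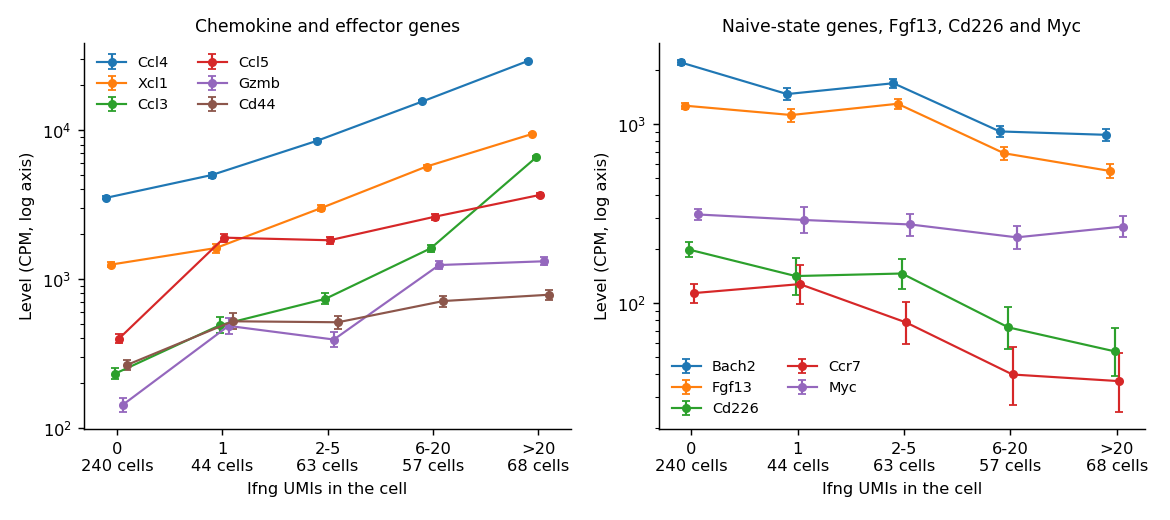
Levels of 6 chemokine and effector genes (left) and of 5 other genes (right) in CD8 T cells by the number of Ifng UMIs in the cell, in CPM on a log axis, with exact Poisson 95% intervals of counting error and the number of cells under each class. Ccl4 runs from 3512 CPM in the members (0 UMIs) to 29135 CPM above 20 UMIs, Ccl5 steps from 397 to 1895 CPM between 0 and 1, and Bach2 is at 2204 CPM at 0, 1467 at 1, 1687 at 2 to 5 and 869 above 20 UMIs.

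The other thresholds had their own neighbours. Members with exactly 1 CD8 UMI (81 cells) and with 2 or more (159 cells) had Cd44 at 360 and 223 CPM and Ccl5 at 637 and 292 CPM, whereas the 618 cells that met the rule except that they had no CD8 UMI had 604 and 804 CPM. For both genes the 1-UMI members lay between the other members and the cells just outside. In those 618 cells Gzmb was at 276 CPM, Bach2 at 1893 and Ccr7 at 95.9, against 143, 2204 and 113 CPM in the 240 members. These differences were smaller than those from all T cells without CD8 genes given above. Themis, at 535 against 1690 CPM, was not closer. The 59 members with 1 checkpoint gene had Ccl5 at 678 CPM, Gzmb at 196, Cd44 at 310, Bach2 at 2197 and Ccr7 at 68.3, against 1113, 1007, 645, 1156 and 62.1 CPM in the 23 cells just outside with 2 checkpoint genes. The 18 members with exactly 2 CD3 and Trac UMIs had Cd44 at 237 CPM, Bach2 at 2720 and Ccl5 at 91.7, against 474, 2006 and 88.2 CPM in the 11 cells just outside with 1.

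The members were not uniform. A Ccl5 UMI was found in 98 of the 240 (40.8%, or 20.9% after thinning), against 25.8% and 9.53% of B cells at similar depth. Of the other 27 memory and effector genes, 12 were higher in the cells with Ccl5 than in the 142 without it and 1 lower, by intervals that did not overlap, and of 14 cytotoxic genes 6 were higher and 1 lower. Over the 291 genes of all lists and named genes, 42 were higher (14.4%) and 24 lower. Gzma was at 173 against 9.97 CPM, Klrk1 at 42.9 against 3.07, Klrc1 at 26.5 against 1.53, Nkg7 at 190 against 57.5, Eomes at 47.0 against 16.1, Cxcr3 at 29.6 against 8.44 and Cd44 at 351 against 200, all with intervals that did not overlap. Of 34 naive-state genes 1 was higher and 4 lower in the cells with Ccl5, which thus did not have less of all of them. Dapl1 was at 14.3 against 13.8 CPM and Satb1 at 2153 against 2206, while Ccr7 was at 85.8 against 134 and Klf2 at 13.3 against 32.2. Fgf13 was at 1264 and 1263 CPM. The split uses measured values, and a deeper cell is likelier to show a UMI of Ccl5, with medians of 9551 and 8696 UMIs with and without Ccl5.

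Transcripts of other cell types were few in the members. The 11 myeloid marker genes summed to 94.6 CPM, led by S100a9 at 21.9 CPM, against 2343 CPM in CD8 T cells with Ifng and 2693 in T cells without CD8 genes, both led by S100a9. In the CD8 T cells with Ifng 1 cell held 94.6% of the S100a8 and S100a9 UMIs, and no member held more than 4 of them. The 10 B cell genes outside the rule summed to 402 CPM, led by Cd74 at 147 CPM, against 1414 in T cells without CD8 genes and 17876 in B cells, with Cd79b at 0 in the members. A single member held 53.1% of the Cd74 UMIs, and under hashtags 9, 10, 11 and 12 Cd74 was at 43.7, 28.0, 346 and 18.8 CPM. The 7 natural killer genes outside the rule summed to 134 CPM, led by Gzma at 79.7, against 581 in T cells without CD8 genes and 708 in CD8 T cells with Ifng. Of the 9 dendritic cell genes 5 had no UMI in the members, among them Flt3, Clec9a and Siglech, and all 5 red cell and platelet genes were at 0. Scrublet marked 7 of the 240 members (2.92%) and 123 of the 1445 T cells without CD8 genes (8.51%) as doublets. By hashtags, 55 of the 240 members and 293 of the 1445 were called as carrying more than 1, which can also mean a doublet. These cells were kept in all levels other than those given by hashtag. The sums of these lists were lower in the members than in T cells without CD8 genes, as were the memory, cytotoxic and cytokine lists, and their part in those differences was not tested beyond the alternatives without marked doublets and without cells that had an S100a8 or S100a9 UMI.

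Genes of dividing cells were low. Of 7 tested proliferation genes, 5 were at least 2-fold lower than in T cells without CD8 genes, beside 14.0% of all genes. The members held 1 UMI of Mki67 and 15 of Top2a, which reached the minimum of UMIs mostly through that larger group. Mki67 was at 0.438 CPM against 23.3, with 11.4 CPM in CD8 T cells with Ifng and 40.4 in those with checkpoint genes, and Top2a at 6.57 against 33.7. Pcna, which is also used in repair, was at 99.4 against 106 CPM. Against CD8 T cells with Ifng and against Cd4 T cells only 1 gene of the list could be tested, and it lay within 2-fold in both. Against CD8 T cells with checkpoint genes 3 could be tested, of which 2 were lower, beside 6.38% of all genes.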

How the data were processed

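RNA and hashtags of pooled mouse spleen cells were sequenced as 1 library each (10x Genomics, 3′ end). The deposited values are counts of UMIs that the authors obtained per barcode for 32285 genes and 4 hashtags, using Cell Ranger and GRCm38 (mm10), and are not normalized. Intervals cover counting error only. The version is 7.2.0 in the submitters' processing notes and 7.0.0 in the matrix header. Hashtags were called with HTODemux (Seurat 5.3.0, R 4.3.3, positive quantile 0.85) within gated T cells, and doublets with Scrublet in scanpy 1.11.5 (expected rate 0.1). They were marked and left out only as an alternative.

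UMIs were summed per group of cells and divided by the total UMIs of the group (CPM). Totals were 2282571 UMIs in the members, 13455951 in T cells without CD8 genes, 2807849 and 1337011 in CD8 T cells with Ifng or checkpoint genes and 1784104 in Cd4 T cells. Intervals are exact at 95% (Poisson, binomial for ratios, Clopper-Pearson for shares). Genes with at least 100 UMIs in both groups together were compared, and a gene was called past 2-fold. A count of 0 was set to 3 for bounds. Counts were simulated with Poisson error only and no spread between cells, so they do not cover genes whose UMIs sit in few cells. On these counts, for 8480 genes of the comparison with T cells without CD8 genes, 194 of 200 genes changed 3-fold were called, with 23 others. Against CD8 T cells with Ifng, those with checkpoint genes and Cd4 T cells, 188, 173 and 174 of 200 were called. For 6-fold changes 196 were called against T cells without CD8 genes, with 26 others, and 178, 162 and 170 in the other comparisons in that order. Gene positions are from GENCODE M21.

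The members, the 22 gene lists and the rule were chosen with earlier results of these data known. Genes could be named from the lists, or as the 10 highest and 10 lowest ratios against T cells without CD8 genes and the 5 highest and 5 lowest in each other comparison, among genes seen in at least 10 cells. Alternatives changed the filters, thresholds, doublets, depth (thinning to 2000 or 1000 UMIs), weighting, scaling and hashtags. Computation was in Python 3.11.15 (SciPy 1.17.1, NumPy 2.4.6) and plots were drawn with matplotlib 3.10.9. A gene of the naive-state list is not reported here by name.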

Additional observations from a re-analysis of the deposited data

How the results depend on the processing

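No paired analysis was possible because the pool is 1 sample and its column carries no replicate number. Over 12 counts (the members and the genes past 2-fold), 172 of 252 alternative values were within 1.5 times the value reported and 80 were not. Leaving out doublets marked by Scrublet, stricter cell filters, a limit on ribosomal UMIs and averaging over cells moved none of the 12. Keeping only cells with 1 hashtag took naive-state genes lower from 5 to 3 against T cells without CD8 genes. The members were 159 with at least 2 CD8 UMIs, and 124 to 164 with a hashtag left out, a setting that also drops cells without a single hashtag. Thresholds and minimums change the counts by construction. At 1.5-fold, genes higher and lower were 277 and 2104 against T cells without CD8 genes, 163 and 317 against CD8 T cells with Ifng, 391 and 701 against those with checkpoint genes and 395 and 1015 against Cd4 T cells. In the same order they were 1728 and 2493, 718 and 1261, 834 and 1984, and 715 and 2378 with no minimum of UMIs, and 16 and 597, 7 and 54, 40 and 104, and 36 and 200 with a minimum of 300. Thinning to 1000 UMIs gave 446, 332, 507 and 362 genes higher and, in the comparisons with the CD8 groups and Cd4 T cells, 453, 621 and 790 lower. Thinning to 2000 UMIs gave 144, 184, 341 and 233 higher and, against CD8 T cells with Ifng, 265 lower. These thinned sums hold fewer UMIs per gene.

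Against T cells without CD8 genes, the median-of-ratios shift was -0.177 on the log2 scale, and changes relative to it gave 92 genes higher, and 749 were lower without cells that had Foxp3, Trdc or Zbtb16. Naive-state genes higher were 2 with at least 4 CD3 and Trac UMIs, thinned to 1000 UMIs or with median of ratios, and 4 at 1.5-fold or with no minimum. Naive-state genes lower were 11 at 1.5-fold, 8 with no minimum, 3 thinned to 2000 UMIs, in cells with 1 hashtag, with median of ratios or without S100a8 and S100a9 cells, and 2 with a minimum of 300, with 4 CD3 and Trac UMIs or without Foxp3, Trdc and Zbtb16 cells. With a hashtag left out, genes higher ranged from 28 to 45, naive-state genes lower from 0 to 3 and memory and effector genes lower from 10 to 15, the lowest of each without hashtag 12. The cause was not tested.

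Against CD8 T cells with Ifng, 57 genes were higher with 1 Ifng UMI allowed and 14 without S100a8 and S100a9 cells, and 80 were lower with 2 CD8 UMIs and 82 in cells of 4000 to 16000 UMIs. With a hashtag left out, 15 (without hashtag 10) to 26 were higher and 56 (without hashtag 11) to 96 lower. Against those with checkpoint genes, 182 were lower in cells of 4000 to 16000 UMIs and 195 without S100a8 and S100a9 cells, and with a hashtag left out 53 (without hashtag 11) to 94 were higher and 156 to 180 lower. Against Cd4 T cells, 291 to 349 were lower with a hashtag left out. The cause was not tested.

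Of 84 single genes, 21 of 1762 alternative log2 ratios reversed. Foxp3 went to 0.35 where cells with Foxp3 were removed. Relative to CD8 T cells with Ifng, Ccr9 went to -0.049 at 1000 UMIs, and Hdac9, with 76.7% of its UMIs in 1 member, to -0.000598 in cells with 1 hashtag and -0.29 to 0.23 with a hashtag left out. In that group 94.6% of the S100a8 and S100a9 UMIs were in 1 cell. Ngp went to 2.62 with 2 CD8 UMIs, 7.92 with 1 Ifng UMI allowed, 2.07 at 4000 to 16000 UMIs, 0.85 in cells with 1 hashtag, 1.18 without S100a8 and S100a9 cells and -0.94 to 1.77 with a hashtag left out. S100a8 went to 0.28, 3.77 and 0.40 with 2 CD8 UMIs, with 1 Ifng UMI allowed and in cells with 1 hashtag and 0.061 to 0.97 with a hashtag left out, and S100a9 to 4.10 with 1 Ifng UMI allowed. Depth limits genes under 100 UMIs, Dapl1 and Ccr9 among them, whose intervals are wide.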

Other observations

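Interferon-induced genes were mostly lower in the members than in T cells without CD8 genes, with a median ratio of 0.512 beside 0.882 over all genes. Of 12 tested genes of this list, 5 were at least 2-fold lower in the members than in T cells without CD8 genes and none higher. Of all genes tested there, 14.0% were lower and 0.518% higher. Iigp1, a GTPase induced by interferon-gamma, was at 18.4 CPM against 88.5, and Ifi27l2a at 93.3 against 338. Relative to CD8 T cells with Ifng, 1 of 9 was higher, the GTPase gene Igtp, at 93.8 against 37.4 CPM (ratio 2.51, 1.98 to 3.20), and 1 lower, Isg15, at 20.2 against 44.9 CPM. In that comparison 0.557% of all genes were higher and 2.51% lower, and 7 of the 9 genes lay above a ratio of 1. Receptors for interleukin-18 were low, with Il18r1 at 6.13 CPM and Il18rap at 10.5 against 57.7 and 83.5 in T cells without CD8 genes and 31.0 and 48.8 in CD8 T cells with Ifng.

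Some of the highest ratios rest on few cells. 1700062C10Rik, a long noncoding RNA gene at chr14:15999768-16037271, was at 81.9 CPM in the members against 6.61 in T cells without CD8 genes (ratio 12.4, 9.57 to 16.1), with 187 UMIs in 24 members. It had no UMI under hashtag 9 and 102, 75.4 and 70.1 CPM under hashtags 10, 11 and 12, and 94.4% of its UMIs in the T cells without CD8 genes were in 10 cells. Gm47782, a noncoding gene on the same chromosome and strand at chr14:15697956-15911315, was at 29.4 against 5.80 CPM, but at 75.9 CPM in B cells. Against CD8 T cells with Ifng, the gene of a histone deacetylase, Hdac9, was at 90.2 against 21.4 CPM, with 76.7% of its UMIs in 1 member. Trib2 and Twsg1, both at 35.0 CPM, and Ube2e2, at 41.2 CPM, were above the 11.4, 12.1 and 11.8 CPM of the CD8 T cells with Ifng. Under hashtags 9, 10, 11 and 12 Ube2e2 was at 43.7, 22.9, 72.0 and 5.13 CPM in the members, so that hashtag 12 lay below that level, and its log2 ratio of 1.81 was 1.00 without hashtag 11. Twsg1 had 2 UMIs in the members under hashtag 9 (10.9 CPM), below its 12.1 CPM in the CD8 T cells with Ifng. Against CD8 T cells with checkpoint genes, the corepressor Tle1 was at 44.7 against 5.98 CPM and Boll, known from germ cells, at 40.3 against 7.48 CPM.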
